A study of Mus musculus with 15 samples.

Results

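The genes described here encode the enzymes and carriers that burn fatty acids and handle ketone bodies. There were 39 of them among the 33058 genes with a summed value in the mouse kidney data, 25 whose products work in mitochondria, 10 whose products work in peroxisomes and 4 whose products are found in more than one compartment. They were chosen by name for their known function, with earlier results of these data known, and the rule itself uses no measured value. A gene's value is the sum of FPKM (sequenced fragments divided by transcript length and by the mapped total of the library) over its annotated transcripts and the assembled transcripts that share its structure.

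Kidney RNA was sequenced from 15 male C57BL/6 mice (C57BL/6J in the methods of the study) on standard chow, 5 each at 3, 12 and 24 months of age, with 1 library per mouse. The question of the study was how kidney RNA differs between young and old animals. The age labels were used as given, although every sample title begins with 3M. Mice keep the numbers of their labels, which are 5 to 9 at 3 months, 17 to 21 at 12 months and 31 to 35 at 24 months. No treatment is labelled, so the 3-month-old mice are the reference for both older ages, and the comparisons of 24 and of 12 months with 3 months share them. Young and old mice were killed on the same day under urethane anesthesia, the 12-month-old ones are not described there, and the hour of killing is not given in the sources used here. The values come from bulk kidney RNA, in which fewer cells of a type and less RNA per cell cannot be told apart.

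The proximal tubule of the kidney lives largely on fatty acids. Long chains enter mitochondria through the carnitine shuttle and are shortened by acyl-CoA dehydrogenases, hydratases, hydroxyacyl-CoA dehydrogenases and thiolases, which hand electrons to the respiratory chain. Peroxisomes shorten very long and branched chains with a parallel set of enzymes whose first step makes hydrogen peroxide, and ketone bodies are made from or returned to acetyl-CoA by a few further mitochondrial enzymes. Many of these genes are known targets of the nuclear receptor PPARα.

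Aligned bases were 5.03 to 6.13 Gb at 3 months, 5.84 to 8.03 at 12 months and 6.07 to 7.33 at 24 months. Genes above 0 numbered 23354 to 24198, 24462 to 25350 and 24747 to 25435. Every 3-month-old mouse thus had fewer genes above 0 than every older one. The part of this in the comparisons with 3 months was not tested. Each library correlated with the other mice of its age with a median Pearson r of 0.966 to 0.970 across genes, which are not independent replicates. The tissue label was met by its markers. The 14 proximal tubule markers summed to 8523 to 13219 FPKM at 3 months, 10010 to 12406 at 12 months and 7554 to 10288 at 24 months. None of the 14 passed the adjusted threshold between any ages. At 24 against 3 months 4 had an unadjusted p under 0.05, with Slc5a2, Gatm and Slc5a12 lower and Slc22a8 higher. They were 28.6% of the 14, beside 14.9% of all genes (11.4% higher, 3.47% lower). At 24 against 12 months 2 of the 14 did, both lower, beside 6.43% of all genes (3.36% lower). At 12 against 3 months none did, beside 14.3%. The 7 fat markers summed to 8.37 to 25.1 FPKM over all the mice. The 4 fibroblast markers summed to 15.1 to 39.9 FPKM at 3 months, 38.5 to 64.4 at 12 months and 29.2 to 48.9 at 24 months, and the 5 leukocyte markers to 58.8 to 143, 112 to 145 and 84.3 to 175. The 6 collecting duct markers summed to 74.2 to 189, 62.2 to 95 and 55.3 to 102. The part of these shifts in the values below was not tested.

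Most of the genes were well expressed. Their mean FPKM over the 15 mice had a median of 52.5, with 7 genes above 100 and 6 under 20. The highest was Acsm2 at 330 ± 74.1 (SD, n = 15), a medium-chain acyl-CoA synthetase of the proximal tubule. The lowest was Cpt1b at 1.72 ± 1.91, the carnitine palmitoyltransferase of muscle, against 76.3 ± 13.7 for Cpt1a, the form of liver and kidney. The median gene level was 52.5 FPKM for the mitochondrial and 59.8 for the peroxisomal list. The plot of every mouse shows how narrow most genes were and which spread.

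**Figure D1:**
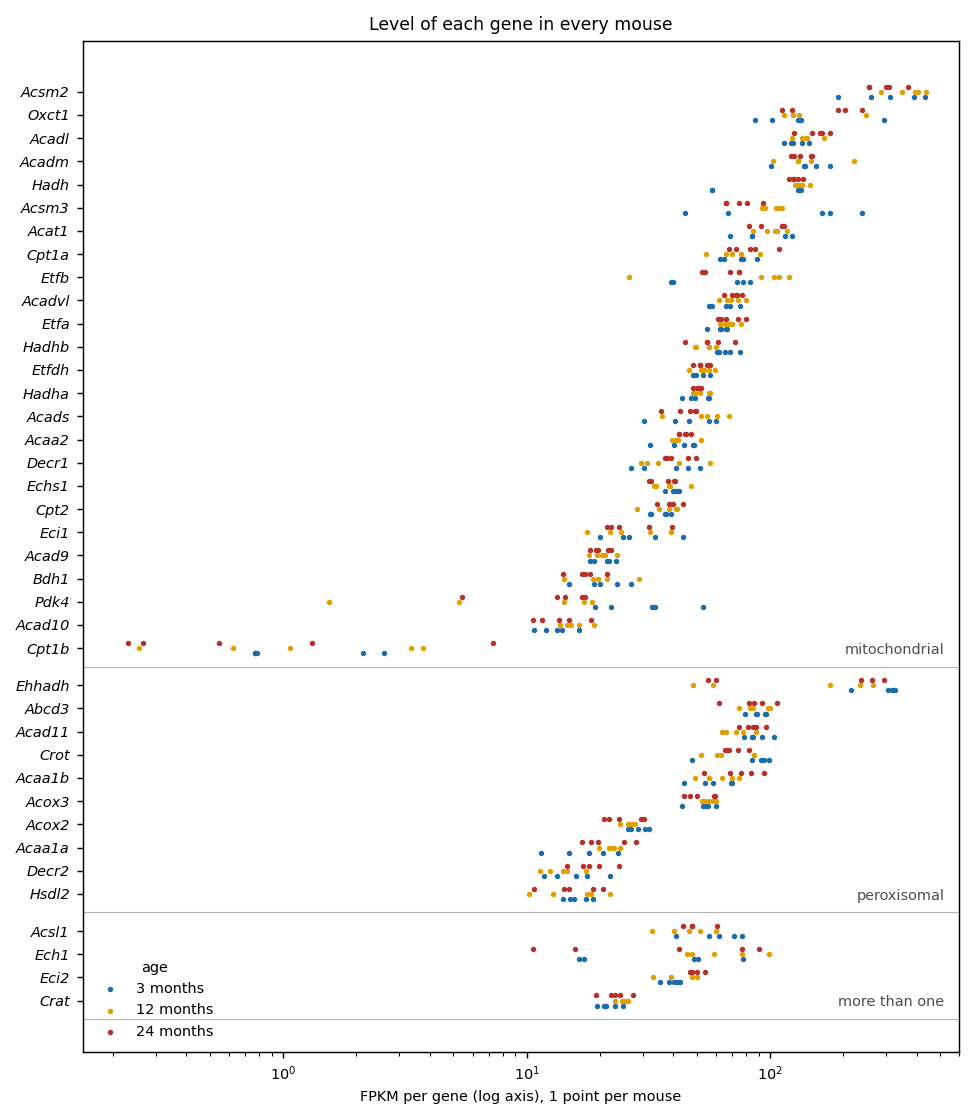
FPKM of the 39 genes in each of the 15 mice, 1 point per mouse on a log axis, colored by age and grouped by compartment. Most genes lie in a narrow band, while Pdk4, Ehhadh, Ech1, Hadh and Cpt1b have gaps within or between ages.

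Across the whole group, none of the 39 genes passed a Benjamini-Hochberg adjusted p of 0.05 with limma in any comparison. The smallest adjusted p was 0.0710 at 24 against 3 months, 0.183 at 12 against 3 months and 0.589 at 24 against 12 months. Over all genes tested the adjusted threshold was passed by 1.22%, 0.250% and 0.00310%. At an unadjusted p under 0.05 there were 3 of 39 genes at 24 against 3 months (2 higher, 1 lower), 5 of 39 at 12 against 3 months (1 higher, 4 lower) and 2 of 39 at 24 against 12 months (1 higher, 1 lower). Of all genes tested, 14.9% (11.4% higher, 3.47% lower), 14.3% (11.4% higher, 2.90% lower) and 6.43% (3.07% higher, 3.36% lower) passed that limit. With both directions counted together, the share of the group was not above the background. By direction, the lower genes at 12 against 3 months were a larger share of the group, 4 of 39, than of all genes. Among better expressed genes, averaging 10 FPKM or more, 347 of 4708 were lower, a share between those of the group and of all genes. This excess of lower genes was not tested. An F test with a library covariate also put 0 of the 39 genes past the adjusted threshold in each comparison. The median difference over the 39 genes was -0.021, 0.04 and -0.014 on the log2(FPKM + 1) scale, beside 0.02, 0.022 and -0.0013 over all genes. The differences of 36, 36 and 38 of the 39 genes were smaller than 0.5, with median standard errors of 0.16, 0.17 and 0.14.

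**Figure D2:**
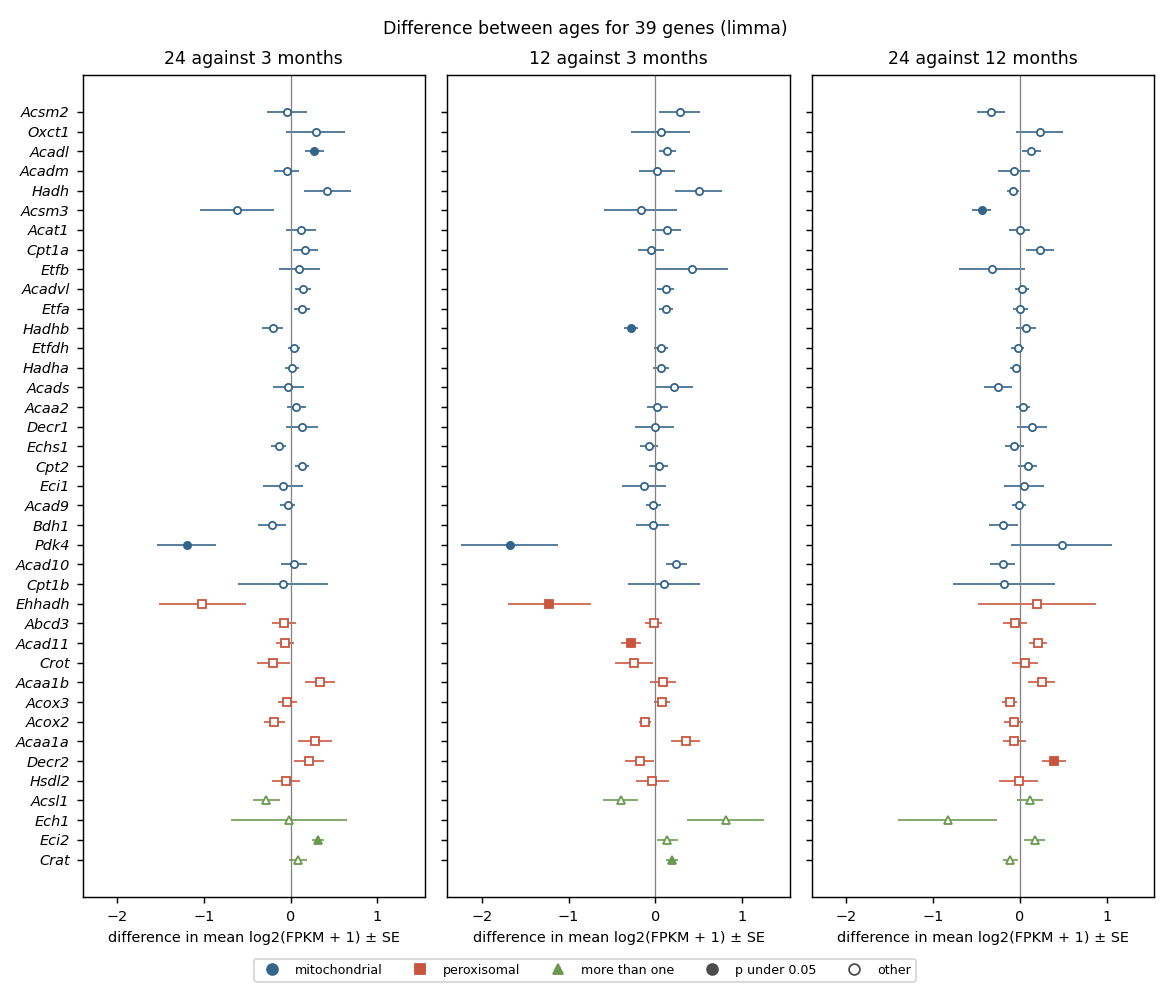
Difference in mean log2(FPKM + 1) between ages with its standard error for the 39 genes in the 3 comparisons, with filled symbols for an unadjusted limma p under 0.05. Most symbols lie within 0.5 of zero, and Pdk4 and Ehhadh lie furthest to the left in both comparisons with 3 months.

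The single gene of fuel choice stood furthest from zero in both comparisons with 3 months. Pdk4 encodes pyruvate dehydrogenase kinase 4, which shuts pyruvate out of the citric acid cycle while fat is burned. In GRCm38 it lies on chromosome 6 at 5483351 to 5496309, on the minus strand. Pdk4 was at 53.0, 32.8, 19.1, 33.8 and 22.3 FPKM in mice 5 to 9, at 17.3, 5.28, 18.6, 14.3 and 1.54 in mice 17 to 21, and at 16.9, 13.3, 14.4, 17.4 and 5.44 in mice 31 to 35. Every 3-month-old mouse was above every older one, with no overlap, and the older ages overlapped each other. At 24 against 3 months 2 of the 39 genes had no overlap between ages, Pdk4 lower and Eci2 higher, beside 4.73% of all genes (3.82% higher, 0.910% lower). At 12 against 3 months they were Pdk4 and Hadhb, both lower, beside 4.11% of all genes (0.667% lower). At 24 against 12 months there was none, beside 1.07%.

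The mean of Pdk4 was 32.2 ± 13.3 FPKM (SD, n = 5) at 3 months, 11.4 ± 7.57 at 12 months and 13.5 ± 4.80 at 24 months. The difference at 24 against 3 months was -1.20 ± 0.34 (SE) on the log2(FPKM + 1) scale, with a limma adjusted p of 0.133 and an exact permutation p of 0.00794, the smallest that 5 against 5 mice can give. It was -1.68 ± 0.56 at 12 against 3 months (adjusted p = 0.220 by limma), and -1.15 with an unadjusted p of 0.160 in an F test with a library covariate. It was the 1 gene of the 39 with an unadjusted p under 0.05 and a difference above 1 at 24 against 3 months, a limit that 0.523% of all genes passed.

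The highest transcript of Pdk4 was also lower in the fit. The 13 transcripts of the gene included 10 assembled ones, and ENSMUST00000019721 held 27.1% of the sum. That transcript was at 10.0 ± 5.68 FPKM at 3 months and 2.97 ± 1.47 at 24 months, a difference of -1.42 ± 0.38 with overlap between the ages and an adjusted limma p of 0.365.

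Genes of the circadian clock are given beside Pdk4, since its transcription is known to follow feeding. At 24 against 3 months 4 of 14 clock genes passed the adjusted threshold with limma, beside 1.22% of all genes. Arntl fell from 11.9 ± 3.30 to 1.45 ± 1.35 FPKM and Npas2 from 5.07 ± 1.57 to 0.523 ± 0.325, while Dbp rose from 1.17 ± 0.891 to 12.3 ± 6.84 and Per3 from 2.36 ± 1.16 to 9.34 ± 2.85. At 12 against 3 months Arntl and Clock fell and Dbp rose past the same threshold, which 0.250% of all genes passed. These are genes whose RNA swings over the day, and the part of sampling time in the Pdk4 values was not tested.

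Activation of fatty acids is the first step. Acsl1 joins long chains to coenzyme A at the outer mitochondrial membrane and elsewhere, and Abcd3 carries acyl-CoA into peroxisomes. Acsl1 was at 41.2 to 77.0 FPKM (median 62.0) at 3 months, 32.8 to 60.1 (median 46.5) at 12 months and 44.0 to 60.4 (median 47.9) at 24 months. The ages overlapped, with a difference of -0.28 ± 0.16 at 24 against 3 months (adjusted limma p = 0.476, exact permutation p = 0.119, n = 5 per age). Abcd3 was level at 89.3 ± 7.14, 88.3 ± 10.7 and 85.7 ± 16.4 FPKM at the 3 ages.

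The medium-chain synthetases varied most among the youngest mice. Acsm3 was at 239, 44.9, 177, 67.0 and 164 FPKM in mice 5 to 9, at 95.8, 92.6, 112, 108 and 106 in mice 17 to 21, and at 74.6, 65.8, 65.9, 93.3 and 80.1 in mice 31 to 35. The 3-month-old mice spread widest, with mouse 6 below and mice 5, 7 and 9 above all the older mice, and mouse 34 alone of the oldest reached into the 12-month range. Acsm3 had the smallest p of the 39 genes at 24 against 12 months, with a difference of -0.44 ± 0.11, an adjusted limma p of 0.589 and an exact permutation p of 0.0159 (n = 5 per age). With all 15 mice in 1 fit, in which the wide 3-month spread counts too, its unadjusted p was 0.240.

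Acsm2 was at 432, 190, 390, 261 and 312 FPKM at 3 months, 395, 287, 407, 347 and 439 at 12 months and 370, 255, 299, 307 and 255 at 24 months. The ages overlapped, and its difference at 24 against 12 months was -0.33 ± 0.16 (adjusted limma p = 0.789, exact permutation p = 0.0635, n = 5 per age).

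The carnitine shuttle gave no difference past the adjusted threshold. Cpt1a, which makes acylcarnitine and sets the rate of entry, was at 73.7 ± 10.6, 71.4 ± 13.5 and 83.7 ± 15.9 FPKM at 3, 12 and 24 months. Cpt2, which reverses that step inside the inner membrane, was at 35.7 ± 3.17, 36.9 ± 5.42 and 39.2 ± 3.52. Crot, the peroxisomal carnitine octanoyltransferase, was at 83.5 ± 20.7, 69.4 ± 15.6 and 70.8 ± 7.20. Crat, which makes acetylcarnitine in mitochondria and peroxisomes, was at 19.4, 20.8, 21.2, 24.8 and 23.0 FPKM in mice 5 to 9 and at 25.4, 23.1, 25.9, 26.0 and 24.6 in mice 17 to 21. Mouse 8 alone of the 3-month-old mice reached into the 12-month range, with a difference of 0.19 ± 0.072 (adjusted limma p = 0.273, exact permutation p = 0.0317, n = 5 per age). The difference was 0.15 with TPM, 0.11 with centred libraries and 0.12 in the F test, with unadjusted p-values of 0.103, 0.213 and 0.144. With annotated transcripts alone it was larger, at 0.40, with an unadjusted p of 0.307.

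The acyl-CoA dehydrogenases take the first step inside mitochondria and divide the substrates by chain length. The long-chain enzyme Acadl lies on chromosome 1 at 66830839 to 66863277. Acadl was at 135, 114, 124, 122 and 145 FPKM in mice 5 to 9, at 142, 135, 166, 140 and 123 in mice 17 to 21, and at 161, 125, 164, 149 and 176 in mice 31 to 35. In 4 of the 5 oldest mice Acadl was above every youngest mouse, and mouse 32 was within their range. The difference at 24 against 3 months was 0.27 ± 0.11, with a limma adjusted p of 0.301 and an exact permutation p of 0.0317 (n = 5 per age). Centring the libraries on their medians gave 0.21, with an unadjusted p of 0.121.

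The other dehydrogenases lay closer to zero at 24 against 3 months. The very-long-chain enzyme Acadvl was at 64.8 ± 7.78, 70.2 ± 6.87 and 71.4 ± 4.42 FPKM at 3, 12 and 24 months. The medium-chain enzyme Acadm was at 142 ± 27.7, 146 ± 44.5 and 135 ± 12.2, and the short-chain enzyme Acads at 46.8 ± 12.0, 54.3 ± 11.9 and 44.9 ± 5.77. Acad9, which also helps to assemble respiratory complex I, was at 20.8 ± 2.13, 20.5 ± 2.03 and 20.2 ± 1.70. Acad10 was at 13.3 ± 2.20, 15.8 ± 2.04 and 13.8 ± 3.07. Acad11, placed in the peroxisomal list, was at 89.0 ± 9.96, 73.4 ± 9.73 and 85.0 ± 7.97. Its difference at 12 against 3 months was -0.28 ± 0.11, with a limma adjusted p of 0.295 and an exact permutation p of 0.0476 (n = 5 per age).

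The later mitochondrial steps are run for long chains by the trifunctional protein, whose subunits are encoded by the neighbors Hadha and Hadhb on chromosome 5. Hadhb, the thiolase subunit, was at 61.9, 75.1, 65.3, 68.7 and 60.5 FPKM in mice 5 to 9, at 60.3, 56.4, 56.4, 49.2 and 49.6 in mice 17 to 21, and at 44.6, 54.9, 55.1, 72.0 and 61.4 in mice 31 to 35. All the 12-month-old mice were below all the 3-month-old ones, though mouse 17 only just, and the oldest mice spread over both ranges. The difference at 12 against 3 months was -0.28 ± 0.086 (adjusted limma p = 0.183, exact permutation p = 0.00794, n = 5 per age). At 24 against 3 months it was -0.21 ± 0.12 (adjusted limma p = 0.473, exact permutation p = 0.119).

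Hadha, the other subunit, was at 50.3 ± 5.37, 52.5 ± 3.96 and 50.6 ± 1.33 FPKM at 3, 12 and 24 months. Among the enzymes of shorter chains, the hydratase Echs1 was at 40.3 ± 1.99, 38.5 ± 5.62 and 36.7 ± 4.25, and the thiolase Acaa2 at 42.8 ± 6.85, 43.3 ± 5.12 and 44.3 ± 2.16. Hadh, the short-chain hydroxyacyl-CoA dehydrogenase, fell into separate levels among the youngest mice. Hadh was at 131, 57.9, 130, 134 and 57.8 FPKM in mice 5 to 9, and at 120 to 146 in all the older mice. Mice 6 and 9 were thus alone at about 58, and its exact permutation p at 24 against 3 months was 0.389 (n = 5 per age).

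**Figure D3:**
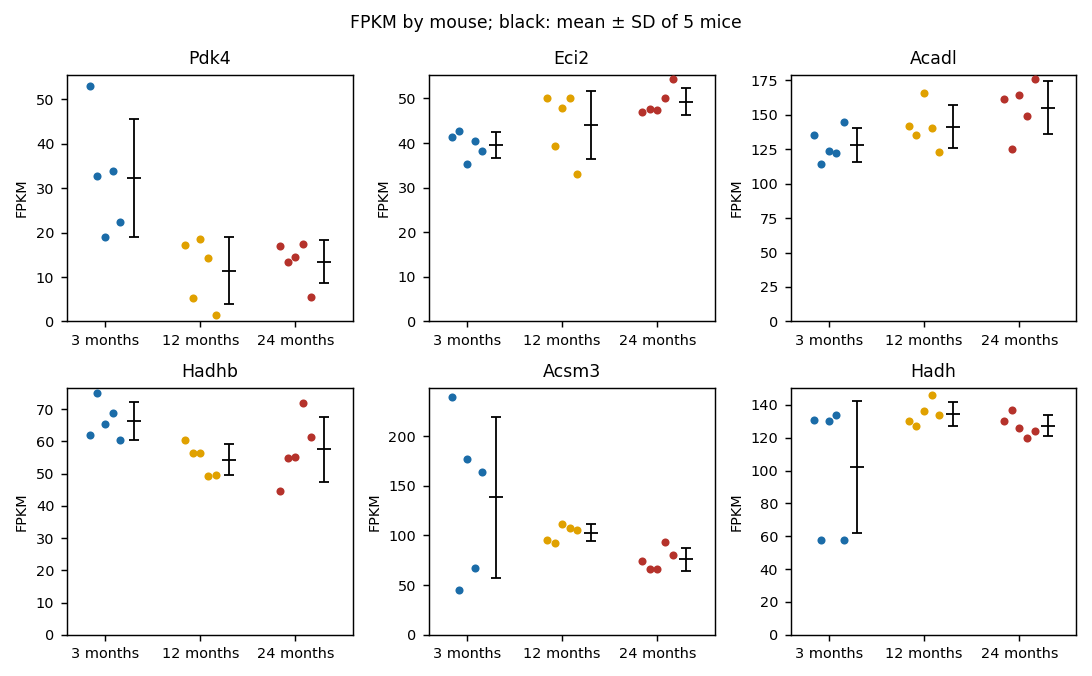
FPKM of 6 genes in each mouse by age, with the mean and SD of 5 mice in black and points in label order. Pdk4 lies lower in both older ages without overlap, Eci2 lies higher at 24 than at 3 months without overlap, and Hadh has 2 low mice at 3 months.

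Unsaturated chains need extra isomerases and reductases. Eci2, an enoyl-CoA isomerase of mitochondria and peroxisomes, had the smallest p of the 39 genes at 24 against 3 months. The gene lies on chromosome 13 at 34977748 to 35027094, on the minus strand. Eci2 was at 41.4, 42.7, 35.3, 40.4 and 38.3 FPKM in mice 5 to 9, at 50.1, 39.3, 47.8, 50.1 and 33.1 in mice 17 to 21, and at 46.9, 47.7, 47.3, 50.1 and 54.3 in mice 31 to 35. All the oldest mice were above all the youngest, and the 12-month-old mice overlapped both ages.

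The difference for Eci2 was 0.31 ± 0.07 at 24 against 3 months, with a limma adjusted p of 0.0710 and an exact permutation p of 0.00794 (n = 5 per age). The Eci2 sum rests on 20 transcripts, of which the highest holds 20.8%. The authors' assembly placed them in 1 locus with the paralog Eci3, whose transcripts summed to 67.0 to 122 FPKM at 3 months and 76.9 to 92.3 at 24 months. Summed over that locus, the difference was 0.073 with an unadjusted limma p of 0.518. The higher value of Eci2 was thus not seen in the locus as a whole, of which Eci3 holds the larger part. With annotated transcripts alone the Eci2 difference was 0.81, with an unadjusted limma p of 0.0277 and an adjusted p of 0.299.

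Ech1, an isomerase of dienoyl-CoA, fell into separate levels. Ech1 was at 16.4, 77.3, 50.4, 17.2 and 48.6 FPKM at 3 months, 76.4, 47.8, 98.8, 59.1 and 45.6 at 12 months and 42.2, 15.8, 76.5, 10.6 and 89.9 at 24 months. In 4 of the 15 mice it was at 10.6 to 17.2, and in the other 11 at 42.2 to 98.8. The assembly joined Ech1 with the next gene, Lgals4, in 1 locus, and in those 4 mice (5, 8, 32 and 34) the transcripts named for Lgals4 summed to 27.6, 53.4, 38.8 and 34.2 FPKM against 11 to 29.5 in the others. The low Ech1 mice were therefore among those with the most signal named for Lgals4, and how the assembly divided reads between the names was not tested.

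The other isomerases and reductases showed no such split. Eci1 was at 29.8 ± 9.37, 27.2 ± 8.53 and 27.8 ± 7.77 FPKM at 3, 12 and 24 months, and the mitochondrial reductase Decr1 at 39.2 ± 10.4, 38.9 ± 11.1 and 42.0 ± 5.70. Its peroxisomal counterpart Decr2 was at 14.6, 14.1, 17.6, 11.4 and 12.5 FPKM in mice 17 to 21 and at 19.9, 23.9, 14.7, 17 and 18.1 in mice 31 to 35, after 11.8 to 22 at 3 months. The ranges at 12 and 24 months overlapped, with a difference of 0.39 ± 0.14 (adjusted limma p = 0.741, exact permutation p = 0.0397, n = 5 per age). With annotated transcripts alone it was 0.20, with an unadjusted p of 0.30.

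Electrons from the dehydrogenases pass through the electron transfer flavoprotein. Its subunit Etfa was at 62.7 ± 4.59, 68.3 ± 5.17 and 68.7 ± 7.77 FPKM at 3, 12 and 24 months, and its acceptor Etfdh at 51.3 ± 3.52, 53.7 ± 4.86 and 52.6 ± 3.27, with little spread. The subunit Etfb spread from 26.4 to 120 FPKM, and its locus in the assembly also holds transcripts of 4 other names.

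The peroxisomal oxidases and their partners carried 1 large spread. Ehhadh encodes the bifunctional enzyme that hydrates and dehydrogenates acyl-CoA in peroxisomes. It lies on chromosome 16 at 21761287 to 21787844, on the minus strand, with a single transcript of 7 exons in the table (ENSMUST00000023559). Ehhadh was at 316, 324, 216, 304 and 325 FPKM in mice 5 to 9, at 234, 48.2, 265, 58.1 and 176 in mice 17 to 21, and at 60.0, 236, 55.8, 263 and 295 in mice 31 to 35. In 4 older mice (18, 20, 31 and 33) it was at 48.2 to 60.0, and in the other 11 mice at 176 to 325, with nothing between.

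The mean of Ehhadh was 297 ± 45.9 FPKM (SD, n = 5) at 3 months, 156 ± 99.3 at 12 months and 182 ± 115 at 24 months. The difference was -1.22 ± 0.48 at 12 against 3 months (adjusted limma p = 0.291, exact permutation p = 0.0238) and -1.02 ± 0.50 at 24 against 3 months (adjusted limma p = 0.389, exact permutation p = 0.0794, n = 5 per age). At 12 against 3 months the difference was also -1.22 with all 15 mice in 1 fit, with an unadjusted p of 0.0522, and -1.19 in the F test, with an unadjusted p of 0.126.

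Acaa1a and Acaa1b encode closely alike peroxisomal thiolases, and a read from the parts they share can be placed on either. Acaa1b was at 53.9, 69.6, 44.3, 69.0 and 58.1 FPKM in mice 5 to 9, at 49.4 to 74.5 at 12 months and at 83.9, 94.3, 76.0, 53.7 and 68.3 in mice 31 to 35. In 3 of the 5 oldest mice Acaa1b was above all the youngest. The difference was 0.34 ± 0.17 at 24 against 3 months (adjusted limma p = 0.403, exact permutation p = 0.119, n = 5 per age), and it was -0.25 with annotated transcripts alone.

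That reversal lay in the assembled transcripts of Acaa1b. The annotated transcript ENSMUST00000010795 was at 40.0 FPKM at 3 months and 34.9 at 24 months, a difference of -0.26 with overlap. An assembled transcript of 9 exons and 6036 bases was at 5.83, 8.35, 9.93, 10.8 and 9.21 FPKM in mice 5 to 9 and at 23.4, 26.2, 20.7, 27.9 and 13.4 in mice 31 to 35. It was higher in every oldest mouse, with a difference of 1.23 ± 0.22, an adjusted limma p of 0.173 over 124719 transcripts and an exact permutation p of 0.00794. How many of all transcripts had no overlap between these ages was not counted. Of the 317 transcripts of the 39 genes, 28 had an unadjusted p under 0.05 (18 higher, 10 lower) at 24 against 3 months and none an adjusted p under 0.05, beside 7.90% (5.43% higher, 2.47% lower) and 0.0192% of all transcripts. A difference above 1 as well was met by 6 of them, beside 0.795% of all.

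The remaining peroxisomal genes gave no difference past the adjusted threshold. Acaa1a was at 17.8 ± 4.80, 22.3 ± 1.60 and 21.6 ± 4.78 FPKM at 3, 12 and 24 months. Its mean was higher at both older ages, with overlapping ranges of 11.5 to 23.8, 19.8 to 24.2 and 16.9 to 28.1. The oxidase Acox3 was at 53.5 ± 6.09, 56.3 ± 3.02 and 52.0 ± 6.83, and Hsdl2 at 16.2 ± 1.88, 16.2 ± 4.71 and 15.9 ± 3.92. The oxidase of branched chains and bile acid intermediates, Acox2, was at 26.0, 28.8, 26.8, 30.6 and 31.7 in mice 5 to 9, at 24.3 to 28.0 at 12 months and at 21.8, 29.6, 20.9, 23.9 and 30.3 in mice 31 to 35. The ages overlapped, with a difference of -0.19 ± 0.12 at 24 against 3 months (adjusted limma p = 0.494, exact permutation p = 0.151, n = 5 per age).

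Summed by compartment, the mitochondrial means were close between ages and the peroxisomal sum moved with Ehhadh. Single mice spread widely in the mitochondrial sum, from 1427 to 2119 FPKM at 3 months. The 25 mitochondrial genes summed to 1827 ± 271 FPKM (SD, n = 5) at 3 months, 1920 ± 228 at 12 months and 1818 ± 77.8 at 24 months. The 10 peroxisomal genes summed to 750 ± 57.2, 585 ± 124 and 632 ± 103. Without Ehhadh the other 9 peroxisomal genes summed to 453 ± 31.8, 429 ± 36.6 and 450 ± 27.3. Every age overlapped the others both with and without Ehhadh. At 24 against 3 months 14 of 25 mitochondrial genes had a positive and 11 a negative difference, with a median of 0.037, and 3 of 10 peroxisomal genes had a positive and 7 a negative one, with a median of -0.058. At an unadjusted p under 0.05 there were 2 of 25 mitochondrial and 0 of 10 peroxisomal genes at 24 against 3 months, beside 14.9% of all genes. There were 2 of 25 and 2 of 10 at 12 against 3 months, all lower. Of all genes 14.3% passed in either direction and 2.90% were lower, the latter a smaller share than in either list. Among genes averaging 10 FPKM or more, 347 of 4708 were lower, a share close to that of the mitochondrial list. At 24 against 12 months there were 1 of 25 and 1 of 10, beside 6.43%. No gene of either list passed the adjusted threshold with limma, and the difference between the lists was not tested.

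**Figure D4:**
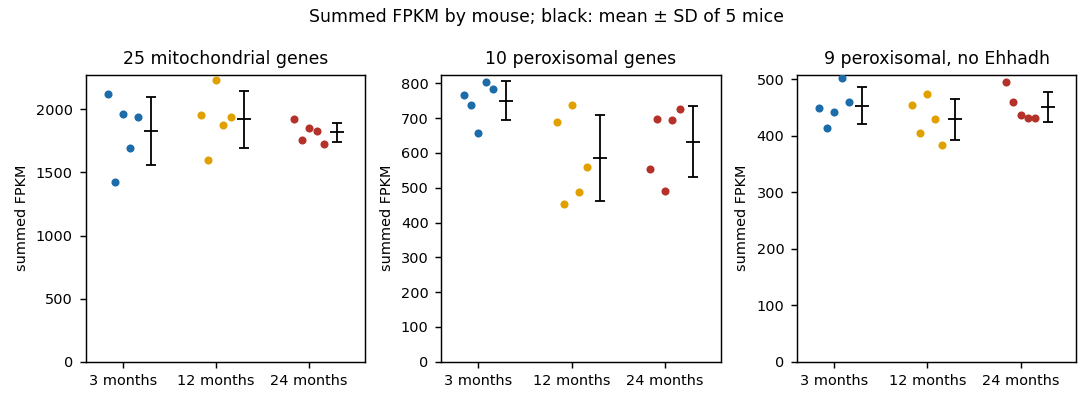
Summed FPKM of the mitochondrial genes, of the peroxisomal genes and of the peroxisomal genes without Ehhadh in each mouse by age, with the mean and SD of 5 mice in black. With Ehhadh left out, the mean peroxisomal sum at 24 months is close to that at 3 months and that at 12 months is slightly lower.

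The compartments were also compared in pairs, as the log2 ratio of a mitochondrial enzyme to a related peroxisomal one within each mouse. To each FPKM 1 was added. The paired enzymes do not all run the same step, since Cpt2 reverses the making of acylcarnitine. There were 6 such pairs in each of the 3 comparisons, tested by exact permutation over 5 against 5 mice. The ratio of Hadha to Ehhadh was -2.53 ± 0.24 at 3 months, -1.24 ± 1.15 at 12 months and -1.49 ± 1.22 at 24 months. Its difference at 12 against 3 months was 1.29 (exact p = 0.0238, 0.143 adjusted over 6 pairs), and at 24 against 3 months 1.03 (exact p = 0.0952, adjusted 0.365). No adjusted p of the 18 ratios was under 0.05.

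The other pairs differed by less. At 24 against 3 months the ratio of Cpt2 to Crot differed by 0.33 (exact p = 0.183), of Acaa2 to Acaa1b by -0.28 (exact p = 0.151), of Acaa2 to Acaa1a by -0.22 (exact p = 0.389), of Acadvl to Acox3 by 0.19 (exact p = 0.278) and of Decr1 to Decr2 by -0.083 (exact p = 0.762). In these 5 pairs the 24-month range overlapped the 3-month range. The same was so for Hadha to Ehhadh, at -2.58 to -0.12 against -2.83 to -2.17. A p above the threshold does not show that the ratios were alike.

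Ketone bodies are made from acetyl-CoA by a pathway that ends in Bdh1, and are used again through Oxct1 and Acat1. Bdh1 was at 20.9 ± 4.51, 20.6 ± 5.35 and 17.6 ± 2.68 FPKM at 3, 12 and 24 months, and Acat1 at 95.2 ± 23.0, 102 ± 12.0 and 102 ± 14.6. Oxct1, the transferase that commits ketone bodies to oxidation, was at 134, 86.9, 130, 102 and 295 FPKM in mice 5 to 9, at 114, 124, 248, 124 and 132 in mice 17 to 21, and at 238, 191, 204, 123 and 112 in mice 31 to 35. Single mice stood high at 3 and 12 months and 3 did at 24 months, and the difference at 24 against 3 months was 0.29 ± 0.34 (adjusted limma p = 0.709, exact permutation p = 0.452).

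Some of the genes also give circular RNAs, in which the end of a later exon is spliced back to the start of an earlier one. The table held 49 circles from 19 of the 39 genes among 11929 circles, with Oxct1 giving 8. All edges of the 48 exonic circles matched exon edges of GENCODE M21 in GRCm38. With edgeR, 5 of the 49 passed an adjusted p of 0.05 at 24 against 3 months, beside 13.3% of all circles (6.66% higher, 6.61% lower), and 17 had an unadjusted p under 0.05 beside 28.8%. The 5 were 4 circles of Oxct1, which fell, and 1 of Abcd3, which rose. The joints of these circles, with those of Ehhadh, are shown since the shared letters tell which of them use the same exon start. The last 15 bases of the donor exon are in lower case and the first 15 of the acceptor exon in capitals.
Oxct1 circRNA4077, exon 5 to exon 2: agcaagccacgagagGGGTGTGTCTGCTAC
Oxct1 circRNA7105, exon 6 to exon 2: caatgtgattttcagGGGTGTGTCTGCTAC
Oxct1 circRNA362, exon 7 to exon 2: actaccgtggtggagGGGTGTGTCTGCTAC
Oxct1 circRNA3333, exon 14 to exon 2: gagcactctgcgaagGGGTGTGTCTGCTAC
Abcd3 circRNA8554, exon 9 to exon 2: gcttatcactaatagTAAGAAAAGTGGAAA
Ehhadh circRNA3318, exon 6 to exon 2: cggttggtgttcttgTCCAACTGTAATCAC
Ehhadh circRNA8260, exon 5 to exon 2: ctcagacggttatagTCCAACTGTAATCAC

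All 4 Oxct1 circles start at exon 2 on the plus strand of chromosome 15, at position 4035260, and end at 4053864, 4057775, 4059996 and 4128923. They overlap and share exons, so they are not separate measurements. The most abundant, circRNA3333, was at 869, 588, 801, 695 and 1094 CPM (counts scaled to the summed circle counts of each mouse) in mice 5 to 9, at 543 to 754 at 12 months and at 633, 576, 631, 618 and 615 in mice 31 to 35. In 4 of the 5 youngest mice it was above all the oldest, and mouse 6 was within their range. The log2 fold change was -0.48, with means of 809 ± 192 and 614 ± 23.2 CPM (SD, n = 5 per age) and an edgeR adjusted p of 0.0393. The other 3 had log2 fold changes of -0.48, -0.47 and -0.48 and edgeR adjusted p-values of 0.0343, 0.0426 and 0.0431. In mouse 9, which had the highest linear Oxct1, circRNA3333 was also the highest, and without that mouse none of the 49 circles passed the adjusted threshold. The same was so without mouse 33 or mouse 34. Of 10 fits that left out 1 mouse, circRNA3333 passed in 2.

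The circle of Abcd3, circRNA8554, spans exons 2 to 9 on the minus strand of chromosome 3 at 121779555 to 121796485. It was at 492, 468, 453, 554 and 500 CPM in mice 5 to 9 and at 725, 605, 739, 943 and 523 in mice 31 to 35, after 358 to 543 at 12 months. In 4 of the 5 oldest mice it was above every youngest mouse, with a log2 fold change of 0.44 and an edgeR adjusted p of 0.0493. It passed in 2 of 10 fits that left out 1 mouse, with adjusted p-values from edgeR of up to 0.111. Linear Abcd3 differed by -0.076 ± 0.14 on the log2(FPKM + 1) scale.

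The circles of Ehhadh did not have the gap of the linear transcript. In the 4 mice with linear Ehhadh at 48.2 to 60.0 FPKM, namely mice 18, 20, 31 and 33, circRNA3318 was at 441, 506, 673 and 548 CPM, within the range of 325 to 811 over all the mice. By age it was at 522 to 811 CPM at 3 months, 325 to 506 at 12 months and 548 to 757 at 24 months, and the log2 fold change at 24 against 3 months was -0.22 (edgeR adjusted p = 0.275, n = 5 per age). The second circle, circRNA8260, had 269 to 417, 156 to 261 and 288 to 398 CPM and shares most of these exons. Both circles had their lowest ranges at 12 months, and as they share exons they are not separate measurements. Circles at 12 months were not tested, and the share of all circles with such ranges was not counted. The deposited values do not separate reads across the joint from other reads of the same exons, and what sets the linear and circular values of Ehhadh apart in these mice was not tested.

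**Figure D5:**
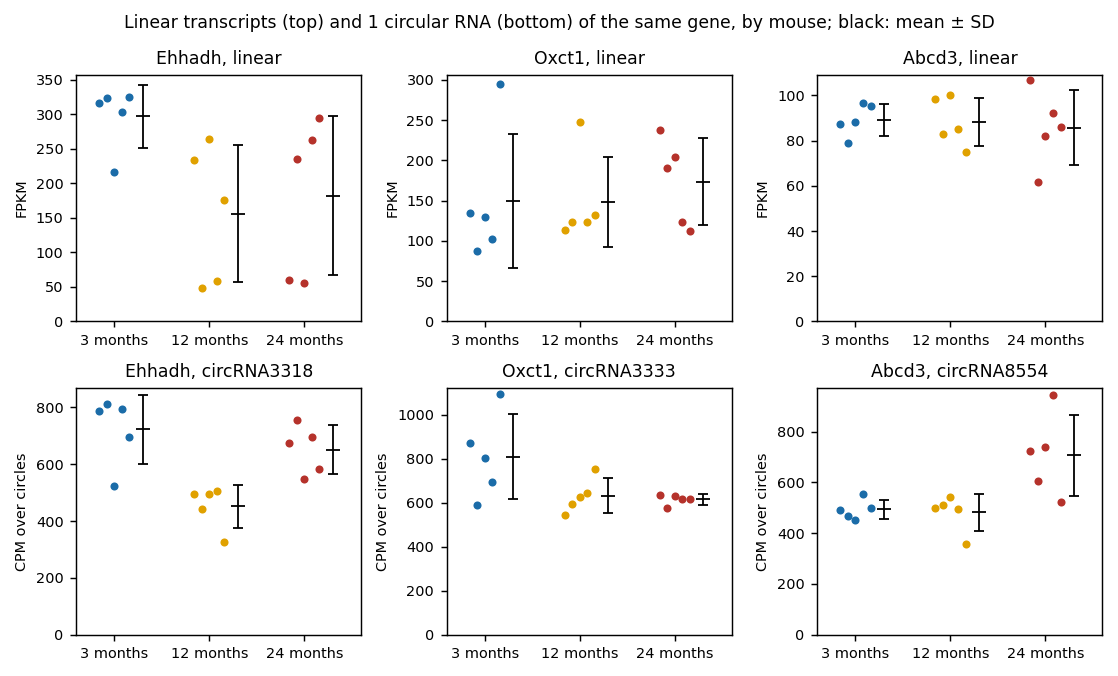
Linear FPKM (top) and CPM of 1 circular RNA (bottom) of Ehhadh, Oxct1 and Abcd3 in each mouse by age, with the mean and SD of 5 mice in black. Linear Ehhadh has 4 low mice that its circle does not show, and the Oxct1 circle lies lower and the Abcd3 circle higher in most of the oldest mice.

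Another 57 genes of fatty acid and ketone body handling were counted for context. At 24 against 3 months 7 of them had an unadjusted p under 0.05, with 5 higher and 2 lower, and 1 passed the adjusted threshold, beside 14.9% and 1.22% of all genes. That gene was Slc16a1, the monocarboxylate transporter that carries lactate and ketone bodies, which fell from 16.3 ± 3.16 to 5.45 ± 1.64 FPKM, without overlap (difference -1.45 ± 0.19, adjusted limma p = 0.0146, exact permutation p = 0.00794). It was at 9.32 ± 1.96 FPKM at 12 months, also below all the 3-month-old mice (adjusted limma p = 0.0846, exact permutation p = 0.00794). At 12 against 3 months 7 of the 57 had an unadjusted p under 0.05 (4 higher, 3 lower), beside 14.3% of all genes, and at 24 against 12 months 8 (5 higher, 3 lower), beside 6.43%, none of them past the adjusted threshold. At 24 against 12 months the smallest p was that of Cyp4a14, a fatty acid hydroxylase, with a difference of 1.36 ± 0.36 and an adjusted limma p of 0.665.

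Promoters of 33 of the 39 genes were found in RefSeq (GRCm38.p6), as windows from 250 bases before to 50 after the start. The direct repeat of AGGTCA with 1 free base between the copies, the DR1 motif of PPAR receptors, was searched on both strands and was in none of the 33 and in 0.0481% of all 27025 genes. AGGTCA alone was in 4 of the 33 (12.1%) and in 18.1% of all genes. The 4 were Cpt1a, Acadvl, Acadm and Echs1, all of the mitochondrial list. That list gave 20 of the 33 promoters, the peroxisomal list 10 and the genes of more than one compartment 3. The share of 4 in 20 is near that of all genes, and the lists were not compared by a test. A missing match says only that these letters are not in the window.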

How the data were processed

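Per the study's methods and the labels, adapters were removed with Cutadapt, Bowtie2 and HISAT2 placed the reads on GRCm38 (Ensembl annotation; the labels also name TopHat2), and StringTie assembled and merged transcripts. The authors deposited FPKM and the mean coverage of each transcript. The methods describe oligo(dT) selection and the labels removal of ribosomal RNA. For circular RNAs the authors deposited estimated counts, and the caller is not given in the sources used here. The genes and lists were chosen with earlier results of these data known.

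FPKM was summed per gene over class codes =, c, j and o. FPKM is scaled to each library's own total and carries no depth, and the assembly decides how reads are shared between overlapping transcripts. Coverage was used to derive aligned bases. Genes above 0 in at least 1 mouse were fitted with limma 3.58.1 (trend) on log2(FPKM + 1), using both ages compared, with Benjamini-Hochberg adjustment over all genes. The pseudocount of 1 understates differences of low genes. "Rose" and "fell" need an adjusted p under 0.05. Circular RNA counts were rounded and tested with edgeR 4.0.16 (quasi-likelihood, TMM, above 0 in at least 5 of 10 mice), and summed to 6974494 to 9889971 per mouse. Single values were tested by 2-sided exact permutation. All 39 genes were named, with full statistics for the 8 smallest p at 24 against 3 months and the 3 smallest in each other comparison. Further values of Acad11, Hadh, Ech1 and Oxct1 were added after seeing them.

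On simulated data limma called 13 of 100 genes changed by 0.5 and 82 of 100 changed by 1.5 (log2) at the adjusted threshold among 31755 genes at 24 against 3 months. edgeR found 198 of 200 circles changed by 1.5, with 16 others. R 4.3.3, DESeq2 1.42.0 and Python 3.11.15 were used. Alternatives were another pseudocount, a mean FPKM of at least 1, TPM, centred libraries, all 15 mice, a robust prior, other class codes, an F test, other limits, DESeq2 and RLE for circles, each mouse left out, and, added after seeing the data, sums over assembled loci. Promoters are from RefSeq and exons from GENCODE M21.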

Additional observations from a re-analysis of the deposited data

Results flagged for a closer look

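Single mice were compared with the other 4 of their age for each of the 39 genes. Of 117 groups of 5 mice, 7 held a mouse further from the rest than Dixon's limit, where chance flags about 1 in 20, or 5.85. At 24 months mouse 35 was at 7.31 FPKM of Cpt1b against 0.231 to 1.31 in the others, and at 60.4 of Acsl1 against 44.0 to 48.0. At 12 months mouse 17 was at 52.3 FPKM of Acaa2 against 39.6 to 42.0, and mouse 19 at 248 of Oxct1 against 114 to 132. At 3 months mouse 9 was at 295 FPKM of Oxct1 against 86.9 to 134, mouse 6 at 47.8 of Crot against 84.2 to 98.9, and mouse 7 at 216 of Ehhadh against 304 to 325. The causes were not tested.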

How the results depend on the processing

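None of the 39 genes passed the adjusted threshold under any alternative. The smallest adjusted p over the alternatives was 0.0798 at 24 against 3 months, 0.0802 at 12 against 3 months and 0.442 at 24 against 12 months. The count at an unadjusted p under 0.05 went from 3 to 1 at 24 against 3 months, from 5 to 2 at 12 against 3 months and from 2 to 0 at 24 against 12 months once a difference above 1 was also asked, and was 1 at 24 against 12 months with all 15 mice in 1 fit or with the F test. It was 28 for transcripts, of which 6 were past that difference and 0 past the adjusted threshold, and 17 for circles, of which 5 passed the adjusted threshold with edgeR and 7 with DESeq2.

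Leaving out 1 mouse gave 2 to 5 genes at 24 against 3 months (5 without mouse 6 or 34), 3 to 6 at 12 against 3 months (3 without mouse 5, 19 or 20) and 1 to 5 at 24 against 12 months (5 without mouse 18, 4 without mouse 31, 1 without mouse 20 or 21). It gave 0 to 1 ratios at 24 against 3 months (1 without mouse 6, 34 or 35), 0 to 2 at 12 against 3 months (0 without mouse 5, 8 or 9, 2 without mouse 7) and 0 to 1 at 24 against 12 months (1 without mouse 32 or 34). Transcripts ranged from 18 (without mouse 33) to 28. Circles at an unadjusted p under 0.05 ranged from 9 to 19 (9 without mouse 9, 10 without mouse 31 or 34, 11 without mouse 33). Circles past the adjusted threshold ranged from 0 to 10 (0 without mouse 9, 33 or 34, 1 without mouse 7, 31 or 32, 2 without mouse 35, 3 without mouse 5 and 10 without mouse 6).

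Of 320 refits of 16 named differences, 268 kept their direction and side of an unadjusted p of 0.05, 39 fell short of it, 12 newly passed it and 1 reversed, that of Acaa1b at 24 against 3 months, which was -0.25 with annotated transcripts alone. Centring the libraries turned the split of all genes at an unadjusted p under 0.05 from 3624 higher and 1101 lower to 1844 and 3579 at 24 against 3 months, from 3620 and 917 to 1417 and 7590 at 12 against 3 months, and from 990 and 1085 to 1299 and 717 at 24 against 12 months, where TPM gave 1422 and 726. The causes were not tested. FPKM holds no depth, so precision per gene rests on 5 mice per age. No paired analysis was possible because the ages share no replicate numbers and each mouse was measured at 1 age.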
